A study of Homo sapiens with 24 samples.

Results

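Chronic hyperosmotic stress in wild-type cells was examined by comparing 4 RNA-seq libraries labelled WT Sor with 4 labelled WT Ctr, which are 8 of the 24 libraries analysed here. The libraries were taken by their labels (untransfected T/C-28a2 cells of WT genotype, with sorbitol or as control), and no measured value entered that choice. Every gene that passed a filter on low counts was tested, which gave 16600 of 62703 gene identifiers. T/C-28a2 is an immortalised human chondrocyte line, so all replicates of both groups derive from a single line. The cells were kept for 7 days in medium with 2% serum, either isotonic (300 mOsm, WT Ctr) or with 100 mM sorbitol added (400 mOsm, WT Sor), and the methods describe the 4 libraries of a group as biological replicates. Poly(A) RNA was sequenced and reads were counted per gene. Of the other groups, 3 enter further comparisons beside this one. The WNK2- cells come from a single CRISPR clone that lacks exon 2 of WNK2 and were grown with (WNK2- Sor) and without (WNK2- Ctr) the same sorbitol. The libraries labelled WNK2 trans Ctr are WT cells in isotonic medium that were transfected with WNK2, as labelled. The remaining group, WNK2 trans Sor, is WT cells transfected with WNK2 and grown with the same sorbitol, as labelled. It enters the fit of all 24 libraries and the plot of WNK2 and mitosis genes by library. It was not compared with another group.

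Cells in hyperosmotic medium lose water, shrink, and regain volume by taking up ions. Over hours to days they replace those ions with organic osmolytes, such as sorbitol, betaine, taurine and myo-inositol, through transporters and enzymes whose genes are targets of the transcription factor NFAT5. Cartilage is rich in charged proteoglycans, so chondrocytes live at a raised and changing osmolarity, and WNK2 belongs to a family of kinases that act on chloride and cation cotransport during volume regulation.

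WNK2 was counted first as a check of the labels, because other groups of the study had the gene deleted or transfected. In the libraries labelled WT Ctr it had raw counts of 2568, 1217, 1972 and 2568, and in those labelled WT Sor 266, 267, 314 and 277. The 2 groups did not overlap, and the log2 fold change was −3.06 (standard error, SE, 0.21, edgeR adjusted p = 1.52e-10). The paper's supplement, in contrast, lists WNK2 at similar levels in WT cells with and without sorbitol. It reports that neither sorbitol nor transfection changed WNK2 significantly. WNK2 (ENSG00000165238) lies on chromosome 9 from 93184916 to 93320572 in GRCh38. The libraries labelled WNK2 trans Ctr held 163 to 290 raw counts of WNK2, fewer than those labelled WT Ctr, which goes against these labels. WT Sor against WNK2 trans Ctr gave a WNK2 value of 0.27 (edgeR adjusted p = 0.434). Mean WNK2 counts scaled to a common library size were 2520 in WT Ctr, 303 in WT Sor and 252 in WNK2 trans Ctr. They were 407 in WNK2- Ctr and 359 in WNK2- Sor. WT Ctr was near its level in the supplement, while WT Sor and WNK2 trans Ctr were far below theirs. All groups are named as labelled, and every direction rests on the labels of WT Ctr and WT Sor. Values of WT Sor against WNK2 trans Ctr are given beside the main ones for named genes where a call was lost or gained or a direction turned. For lists they are given in most cases, and a list without them was not shown to hold against WNK2 trans Ctr. Both comparisons use the same WT Sor libraries. The comparison within WNK2- cells shares no library with them.

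**Figure D1:**
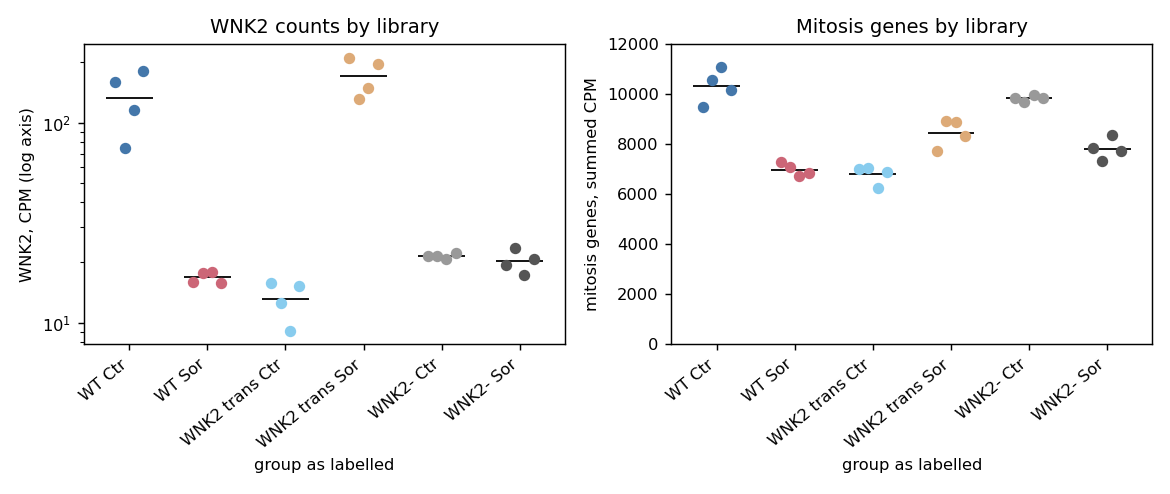
Left, WNK2 in CPM (counts scaled by library size, log axis), and right, the summed CPM of the 38 mitosis genes tested, in each of the 24 libraries by labelled group. Points are libraries and bars are means of 4. The libraries labelled WT Ctr and WNK2 trans Sor stand above the other groups for WNK2, and WT Ctr and WNK2- Ctr stand highest for the mitosis genes.

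Total counts ran from 14153002 to 17128840 in WT Ctr and from 14979799 to 17588934 in WT Sor. At this similar depth, 17619 to 20120 genes had at least 1 count in a WT Ctr library and 21162 to 21550 in a WT Sor library. The WT Ctr libraries varied more among themselves, with a median SD over genes of 0.317 on the log2 scale against 0.123 in WT Sor. WT Ctr replicate 2 stood apart, with the fewest genes detected, and list counts of 3 or more genes that moved by over 1.5 times without it are given with that value. Of the 18 chondrocyte markers, 12 were tested, and their summed CPM was 109 to 118 in WT Ctr and 115 to 121 in WT Sor. SOX6, COL9A1, COL11A1, CHAD and CILP stayed under 1 CPM in all 8 libraries, and SOX9 was listed at 0 in all 24. An exact 0 need not mean absence here, because 105 of the 1218 genes in the lists used below were listed at 0 in every library, among them 7 cytosolic ribosomal protein genes, which every cell uses.

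Many genes differed between the libraries with and without sorbitol. Of the 16600 genes, 4008 (24.1%) passed an adjusted p of 0.05 in edgeR's quasi-likelihood test, 1893 (11.4%) higher and 2115 (12.7%) lower in WT Sor. Changes of at least 2-fold were mostly rises, with 752 genes higher (4.53%) and 115 lower (0.693%). Most of these rises were in weakly counted genes. At a mean log2 CPM under 1, 376 genes were higher and 56 lower by that measure, and at 1 to 3, 242 and 28. At 5 or over, 42 were higher and 18 lower. For 4272 genes (25.7%) the 4 WT Sor libraries did not overlap the 4 WT Ctr libraries. The median log2 fold change of all genes was 0.04. Without WT Ctr replicate 2 the test called 2761 genes, 1381 of them higher. Against WNK2 trans Ctr, 2499 genes (15.1%) were called, 1451 higher (8.74%) and 1048 lower (6.31%). In WNK2- cells sorbitol gave 2473 calls (14.9%), 1370 higher (8.25%) and 1103 lower (6.64%). With only the compared groups fitted, sorbitol gave 2692 calls in WT and 4824 in WNK2- cells. The order of these counts thus depends on the fit, and they do not rank the responses of the genotypes. A test of whether the effect of sorbitol differed between WT and WNK2- cells called 1436 genes (8.65%), with the effect higher in WT cells for 773 (4.66%) and lower for 663 (3.99%).

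Rises and falls were spread unevenly over expression levels. Among the 4188 genes with a mean log2 CPM under 1, 394 were higher and 66 lower, and among the 6579 genes at 5 or over, 540 were higher and 1489 lower. The median log2 fold change went from 0.35 in the lowest class through 0.22 and 0.02 to −0.08 in the highest. Against WNK2 trans Ctr these 4 medians were 0.27, 0.14, −0.02 and −0.07, and in WNK2- cells they were 0.27, 0.12, 0.00 and −0.07. The same order of classes was found in each comparison, but the WT Sor libraries enter both comparisons of WT cells. The filter on low counts can pass a gene through a single group. Weakly counted genes that are high with sorbitol could thus enter by that group, and its part in the lowest class was not tested.

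**Figure D2:**
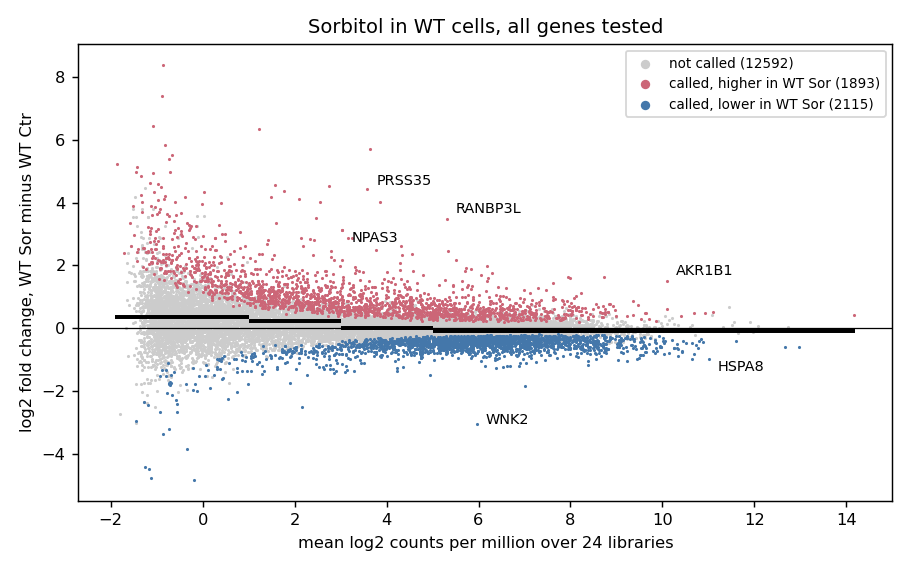
Log2 fold change of WT Sor against WT Ctr for the 16600 genes tested, against the mean log2 CPM over 24 libraries. Red points are the 1893 genes called higher, blue points the 2115 called lower, grey points genes not called, and black bars the median of each expression class, which falls from 0.35 to −0.08.

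Some genes of osmolyte accumulation rose. Of the 18 genes tested in the list of osmolyte transport and tonicity response, 7 (38.9%) were higher and 2 (11.1%) lower, and the list's median log2 fold change was 0.36. With WNK2 trans Ctr as control 4 were higher and 1 lower (median 0.23), and in WNK2- cells 7 were higher and 0 lower (median 0.31). AKR1B1, aldose reductase, which makes sorbitol from glucose, had 9140, 10106, 7076 and 7281 normalized counts in WT Ctr and 23262, 23733, 23907 and 23909 in WT Sor (counts scaled to a common library size). All WT Sor libraries were above all WT Ctr libraries, with a log2 fold change of 1.50 (SE 0.11, edgeR adjusted p = 8.44e-10). The gene (ENSG00000085662, GRCh38 chromosome 7, 134442350 to 134459284) was also higher against WNK2 trans Ctr, by 2.14, and in WNK2- cells, by 2.17. The rise in WT cells was smaller than that in WNK2- cells, by 0.67 on the log2 scale (edgeR adjusted p = 0.00729 for the difference).

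SLC6A12, the betaine transporter, went from 44.6, 10.7, 46.5 and 29.2 normalized counts to 162, 188, 144 and 149. The groups did not overlap, and the log2 fold change of 2.28 (SE 0.26, edgeR adjusted p = 7.90e-07) stood beside 1.33 against WNK2 trans Ctr and 2.02 in WNK2- cells. SLC6A12-AS1 lies over SLC6A12 on the other strand, and whether counting used strand is not stated. SGK1, a kinase that raises the activity of ion and amino acid transporters, rose from 2989, 3816, 3148 and 2940.4 to 5798, 5529, 5991 and 6121, or by 0.86 (SE 0.08, edgeR adjusted p = 2.47e-08). It rose against WNK2 trans Ctr (0.51) and in WNK2- cells (0.65) as well. SLC38A2, a neutral amino acid transporter, rose by 0.48 (SE 0.12, edgeR adjusted p = 0.00519), with values of 0.29 and 0.31 in the other 2 comparisons that did not pass. ATP1B1, the beta subunit of the sodium pump, was named after its values were seen. It rose by 1.21 from 1754 ± 172 to 4055 ± 199.7 normalized counts (SD, n = 4, edgeR adjusted p = 1.18e-10). With WNK2 trans Ctr as control, whose mean was 3515, the value of ATP1B1 was 0.21 and did not pass (adjusted p = 0.0859), and in WNK2- cells it rose by 0.56 (adjusted p = 2.18e-05).

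The enzyme that removes sorbitol moved the other way. SORD, sorbitol dehydrogenase, had 388, 446, 362 and 362 normalized counts in WT Ctr and 296, 299.9, 234 and 273 in WT Sor. It fell by 0.50 (SE 0.12, edgeR adjusted p = 0.00472), while its values against WNK2 trans Ctr (−0.29) and in WNK2- cells (−0.03) did not pass. NFAT5 itself had 1428, 1918, 3311 and 3059 normalized counts in WT Ctr and 3645, 4002, 3949.8 and 3208 in WT Sor, so the groups overlapped. Its log2 fold change was 0.61 (SE 0.26, edgeR adjusted p = 0.0967, range over alternatives 0.00584 to 0.248). SLC6A6, the taurine transporter, was at −0.04 (SE 0.10, edgeR adjusted p = 0.827) and fell by 0.34 against WNK2 trans Ctr (adjusted p = 0.0192). SLC5A3, the myo-inositol transporter, was listed at 0 in all 24 libraries.

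The promoters of these genes were searched for TGGAAA, the core letters of the tonicity element that NFAT5 binds, on both strands of the RefSeq window from 250 bases before to 50 after each start (GRCh38.p14). Promoters of 13 of the 20 genes in the list were in the table, and 1 of them (7.7%) held the letters, against 7285 of all 35116 promoters (20.7%). That gene is SLC38A2, shown with the match in capitals and read on its own strand, and AKR1B1 is shown because it was the most abundant of the genes that rose.
SLC38A2, chr12:46372724-46373023, minus strand: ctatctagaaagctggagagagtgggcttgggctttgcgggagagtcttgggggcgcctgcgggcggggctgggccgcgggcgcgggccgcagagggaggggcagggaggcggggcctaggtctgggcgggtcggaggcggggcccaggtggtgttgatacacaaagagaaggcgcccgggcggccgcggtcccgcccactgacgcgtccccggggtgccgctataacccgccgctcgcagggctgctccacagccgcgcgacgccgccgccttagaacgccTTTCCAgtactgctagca
AKR1B1, chr7:134459051-134459350, minus strand: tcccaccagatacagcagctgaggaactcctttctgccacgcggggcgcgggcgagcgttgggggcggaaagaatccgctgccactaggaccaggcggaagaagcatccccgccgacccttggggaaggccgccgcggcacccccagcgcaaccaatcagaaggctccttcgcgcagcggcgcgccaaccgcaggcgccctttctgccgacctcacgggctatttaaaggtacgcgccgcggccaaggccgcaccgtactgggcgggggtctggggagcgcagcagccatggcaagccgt
The match in SLC38A2 begins 32 bases after the start. The absence of the letters from the other windows says nothing of sites elsewhere.

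Of 24 channels and cotransporters of volume regulation tested, 4 (16.7%) were higher and 1 (4.17%) lower, beside 11.4% and 12.7% of all genes. The median was 0.12, and after correcting the libraries for GC content and transcript length 9 were higher and 3 lower. Without WT Ctr replicate 3, 7 were higher. TRPV2, a cation channel, went from 25.6 ± 9.67 to 87.8 ± 10.2 normalized counts (SD, n = 4). The log2 fold change was 1.78 (SE 0.27, edgeR adjusted p = 4.67e-05), with 1.33 against WNK2 trans Ctr and 0.96 in WNK2- cells. CLIC1 fell by 0.44 (SE 0.13, edgeR adjusted p = 0.0125), a call lost in 2 alternatives (adjusted p up to 0.0544). Of the targets of WNK kinases, a kinase and a cotransporter did not pass against WT Ctr, with −0.21 for STK39 and 0.34 for SLC12A2 (edgeR adjusted p = 0.122 and 0.127). STK39 was higher by 0.48 against WNK2 trans Ctr (adjusted p = 0.00142), while SLC12A2 was at 0.42 there (adjusted p = 0.0788). Against WT Ctr, SLC12A2 passed in 2 alternatives, among them the GC and length correction (0.40, edgeR adjusted p = 0.00570). TRPV4, a channel that responds to osmolarity in chondrocytes, was at −0.17 (edgeR adjusted p = 0.486) in WT cells and at −1.14 (adjusted p = 3.46e-05) in WNK2- cells. LRRC8A, the core subunit of the volume-regulated anion channel, was at −0.01 (SE 0.07).

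The largest rises among well-counted protein-coding genes are described first. PRSS35, a serine protease-like secreted protein on chromosome 6 (83512538 to 83525704), had 12.1, 11.8, 16.2 and 11.9 normalized counts in WT Ctr and 275, 293, 332 and 256 in WT Sor. The rise of 4.45 (SE 0.27, edgeR adjusted p = 2.49e-11) stood beside 4.17 against WNK2 trans Ctr and 4.73 in WNK2- cells. RANBP3L, a nuclear export factor on chromosome 5 (36248434 to 36302114), went from 198, 279, 238 and 216 to 2429, 2137, 3243 and 2589. Its log2 fold changes were 3.48 in WT cells (SE 0.22, edgeR adjusted p = 4.08e-11), 3.77 against WNK2 trans Ctr and 2.12 in WNK2- cells. PRRX1, a homeobox factor of limb and skeletal mesenchyme on chromosome 1 (170662728 to 170739419), had 201, 204, 178 and 191 against 1091, 987, 1107 and 1059. It rose by 2.45 (SE 0.11, edgeR adjusted p = 1.12e-13), by 2.73 against WNK2 trans Ctr and by 2.78 in WNK2- cells. MYH15, a myosin heavy chain, rose from 18.6 ± 9.58 to 105 ± 9.11 normalized counts (SD, n = 4). The change was 2.48 (SE 0.25, edgeR adjusted p = 1.24e-07), against 4.07 and 2.81 in the other comparisons. These 4 genes passed in each of the 3 comparisons.

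Of the remaining rises, GALNT9, an enzyme of O-linked glycosylation, passed in all 3 comparisons. It went from 38.6, 47.4, 35.7 and 35.8 to 270, 279.6, 309 and 299 normalized counts, which gave a log2 fold change of 2.87 (SE 0.21, edgeR adjusted p = 8.44e-10) that exceeded the one in WNK2- cells by 1.10 (adjusted p = 0.0166). The rise was 1.55 with WNK2 trans Ctr as control and 1.78 in WNK2- cells. SSTR1, a somatostatin receptor, rose from 25.3, 42.6, 32.5 and 37.2 to 254, 199.5, 302 and 262, or by 2.89 (SE 0.22, edgeR adjusted p = 1.10e-09). In WNK2- cells it was at −0.14, and the difference of 3.03 passed (adjusted p = 1.78e-07). NPAS3, a transcription factor best known from the nervous system, rose from 24.1, 41.4, 72.5 and 23.9 to 339, 343, 429 and 337. The change of 3.14 (SE 0.33, edgeR adjusted p = 2.11e-07) became 0.64 against WNK2 trans Ctr (adjusted p = 0.130) and −0.16 in WNK2- cells (adjusted p = 0.841). APOE, the lipid carrier apolipoprotein E, rose from 226 ± 104 to 1150.4 ± 82.2 normalized counts (SD, n = 4). Its log2 fold change was 2.35 (SE 0.27, edgeR adjusted p = 7.75e-07) against WT Ctr and 0.44 (adjusted p = 0.253) against WNK2 trans Ctr. A gene without a name, ENSG00000280087, shares exon sequence with APOE on the same strand.

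**Figure D3:**
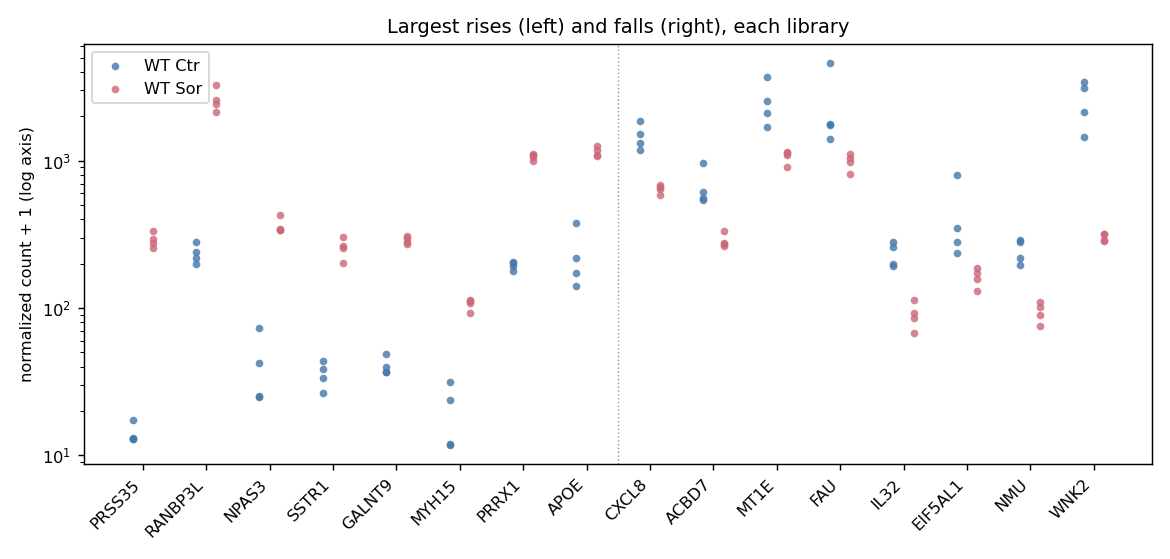
Normalized counts plus 1 (log axis) of the 8 largest rises and 8 largest falls in each library labelled WT Ctr (blue) and WT Sor (red). PRSS35 lies at 11.8 to 16.2 in WT Ctr and at 256 to 332 in WT Sor, and no gene shown overlaps between the groups.

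The largest falls after WNK2 were smaller. NMU, a signalling peptide, went from 279.7, 287, 194 and 218 normalized counts to 108, 88.4, 74.1 and 101. It fell by 1.40 (SE 0.17, edgeR adjusted p = 2.81e-06), by 0.85 against WNK2 trans Ctr and by 1.25 in WNK2- cells, and passed in each. The other 6 of the largest falls after WNK2 did not pass as falls in either of the other comparisons. IL32, a cytokine, went from 231 ± 44.0 to 89.1 ± 19.2 (SD, n = 4), with −1.37 against WT Ctr, −0.39 against WNK2 trans Ctr and −0.18 in WNK2- cells. MT1E, a metallothionein of a family of near-identical copies, was at −1.23 (SE 0.20, edgeR adjusted p = 7.56e-05) against WT Ctr, at −0.18 against WNK2 trans Ctr and at 0.51 in WNK2- cells. The same held for ACBD7, a binding protein for fatty acyl-CoA, with −1.23, −0.27 and −0.20. FAU, which encodes a ribosomal protein fused to a ubiquitin-like protein, and EIF5AL1, a copy of EIF5A, had −1.27 and −1.37 against WT Ctr, and −0.44 and −0.40 against WNK2 trans Ctr. WT Ctr replicate 2 was the highest of the 4 for both, at 4602 against 1395 to 1779.8 for FAU and at 797 against 234 to 347 for EIF5AL1. Over the alternatives, which include single libraries left out, FAU ran from −1.44 to −0.73 and EIF5AL1 from −1.54 to −0.83. Reads of FAU, EIF5AL1 and MT1E may be shared with near-identical copies.

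Genes of cell division fell together. Of 38 mitosis genes tested, 0 were higher and 37 (97.4%) lower, with a median log2 fold change of −0.69, and all 38 had values below 0. CCNB2, a mitotic cyclin, went from 2626, 3788, 2548 and 2040.3 normalized counts to 1252, 1234, 1087 and 1223, or fell by 1.20 (SE 0.14, edgeR adjusted p = 1.28e-06). Among genes named after their values were seen, CCNB1 fell by 0.90 and CDK1, the mitotic kinase, by 0.65. Of these 3 genes none passed against WNK2 trans Ctr, with −0.19 for CCNB2, −0.12 for CCNB1 and −0.30 for CDK1 (edgeR adjusted p = 0.407, 0.548 and 0.0523). MKI67, the Ki-67 antigen, fell by 0.38 (edgeR adjusted p = 0.0433), a call lost in 11 alternatives, and was at 0.05 against WNK2 trans Ctr. The size of this difference depended on the control libraries. The summed CPM of the list was 9476 to 11068 in WT Ctr and 6707 to 7273 in WT Sor, but 6243 to 7045 in WNK2 trans Ctr, against which 1 gene was higher and 1 lower (median −0.07). In WNK2- cells the sums were 9692 to 9968 without and 7307 to 8349 with sorbitol, with 0 genes higher, 24 lower and a median of −0.38.

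Of 41 DNA replication genes, 0 were higher and 26 (63.4%) lower, with a median of −0.39. GINS2, part of the replicative helicase, went from 2461, 2771, 1956 and 1865 to 1241, 1258, 1148 and 1309.9 normalized counts. It fell by 0.87 (SE 0.12, edgeR adjusted p = 1.15e-05), by 0.59 against WNK2 trans Ctr and by 0.48 in WNK2- cells. PCNA, the sliding clamp, fell by 0.54 (edgeR adjusted p = 0.00202) and was named after its values were seen. For the list, 11 genes were lower against WNK2 trans Ctr and 19 in WNK2- cells, and none was higher in either. CDKN1A, the CDK inhibitor p21, rose from 2138, 1089, 1443 and 1702 to 3114, 3113, 2860.2 and 3034, or by 0.93 (SE 0.16, edgeR adjusted p = 0.000217). In WNK2- cells it rose by 0.89 (adjusted p = 0.000356), and against WNK2 trans Ctr it was at 0.41 (adjusted p = 0.0941). Of the 26 p53 targets and CDK inhibitors tested, CDKN1A among them, 3 (11.5%) were higher and 3 (11.5%) lower, with a median of 0.06. These shares are near the 11.4% and 12.7% of all genes. CCNG1, cyclin G1, fell by 0.55 and was at −0.09 against WNK2 trans Ctr. The count of rises was 1 without WT Ctr replicate 2 or any of WT Sor replicates 1, 2 and 4.

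**Figure D4:**
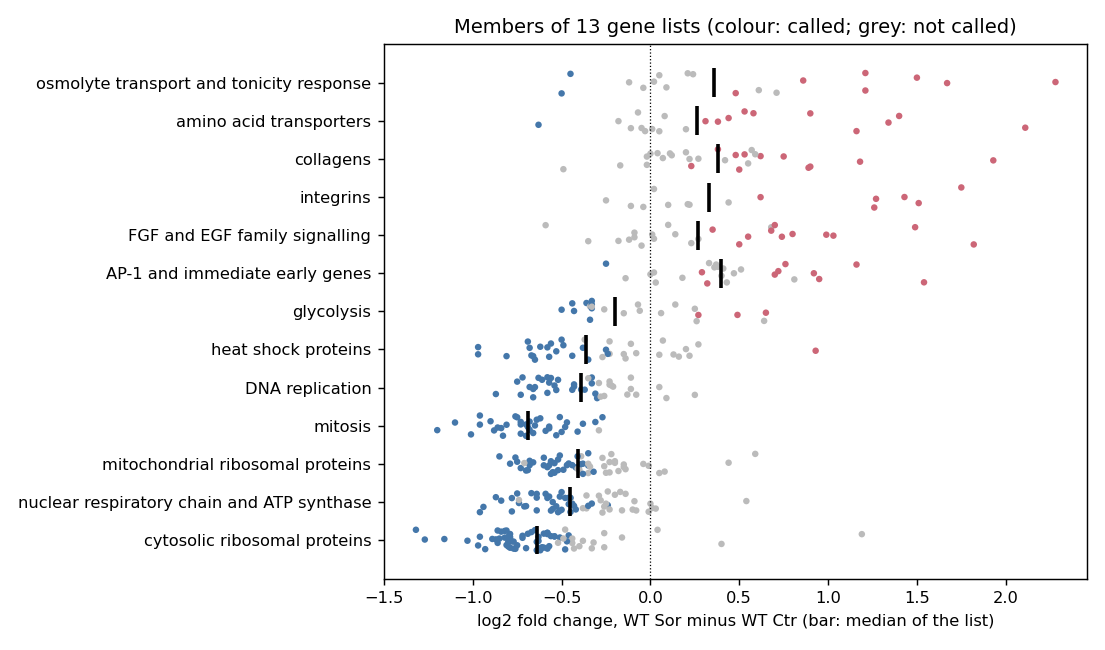
Log2 fold change of WT Sor against WT Ctr for the members of 13 lists. Each point is a gene (red called higher, blue called lower, grey not called) and black bars are list medians, from 0.40 for AP-1 and immediate early genes to −0.69 for mitosis genes.

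Genes of the protein synthesis machinery were lower. Of 71 cytosolic ribosomal protein genes, 0 were higher and 55 (77.5%) lower, with a median of −0.64, and the direction was shared against WNK2 trans Ctr (42 lower, median −0.59) and in WNK2- cells (11 lower, median −0.38). RPS23 went from 209, 345, 309 and 126 normalized counts to 81.7, 70.5, 114 and 131, and the groups overlapped. Its log2 fold change was −1.32 (SE 0.25, edgeR adjusted p = 0.000422). Ribosomal protein genes have many processed pseudogenes that can take up their reads, and of the 226 processed pseudogenes tested 53 were lower and 3 higher. Mitochondrial ribosomal protein genes had 0 of 59 higher and 34 lower (median −0.41), with 22 lower without WT Ctr replicate 2. MRPL27 fell by 0.85, and its value of −0.52 against WNK2 trans Ctr did not pass (edgeR adjusted p = 0.0571). In the comparison with WNK2 trans Ctr 7 of these were lower and in WNK2- cells 0 were.

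The nuclear genes of the respiratory chain and ATP synthase, which produce most of a cell's ATP in mitochondria, showed a like pattern. Of 61 tested, 0 were higher and 37 (60.7%) lower, with a median of −0.45, and 18 were lower without WT Ctr replicate 2. UQCRQ, a subunit of complex III, fell by 0.96 (SE 0.22, edgeR adjusted p = 0.00300) and was at −0.22 against WNK2 trans Ctr (adjusted p = 0.586). In the comparison with WNK2 trans Ctr 6 genes were lower (median −0.24), and in WNK2- cells 0 were (median −0.13). The 13 genes of the mitochondrial genome did not follow, with 1 lower, MT-ATP8 at −0.98, and a median of 0.03. With WNK2 trans Ctr as control MT-ATP8 was at −0.29. MT-ATP8 overlaps MT-ATP6, so reads over the shared part cannot be assigned.

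Chaperone genes fell in WT cells. Of 36 heat shock proteins and co-chaperones, 1 was higher and 20 (55.6%) lower, with a median of −0.36. The list had 2 higher and 11 lower against WNK2 trans Ctr (median −0.23). HSPA8, the constitutive cytosolic HSP70, had 43902, 63926, 44048 and 40760.4 normalized counts in WT Ctr and 25153, 24586, 23915 and 24752 in WT Sor. It fell by 0.97 (SE 0.11, edgeR adjusted p = 5.49e-07) and by 0.72 against WNK2 trans Ctr, while in WNK2- cells the value was −0.11 (adjusted p = 0.571). The difference between genotypes passed (adjusted p = 0.000595). HSP90AA1, an HSP90 chaperone, and DNAJB1, an HSP40 co-chaperone, were named after their values were seen. They fell by 0.97 and 0.58, also fell against WNK2 trans Ctr (by 0.65 and 0.33), and had values of −0.12 and −0.05 in WNK2- cells. The difference between genotypes passed for both (adjusted p = 1.94e-05 and 0.0159). HSPB8, a small heat shock protein that acts in chaperone-assisted autophagy, rose from 109, 68.7, 95.2 and 90.3 to 161, 180.4, 170.5 and 182, or by 0.93 (SE 0.13, edgeR adjusted p = 1.47e-05). In WNK2- cells HSPB8 rose by 0.59. Across the whole list 1 gene was higher and 1 lower in WNK2- cells, with a median of −0.03.

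The unfolded protein response and the targets of ATF4 were divided within a single list of 39 genes. Of these, 8 (20.5%) were higher and 4 (10.3%) lower (median 0.12), beside 11.4% and 12.7% of all genes. With the GC and length correction 17 were higher and 6 lower. The list had 4 higher and 2 lower against WNK2 trans Ctr (median 0.00). CHAC1, a glutathione-degrading target of ATF4, rose from 321, 104, 161 and 223 to 731, 711, 701 and 763 normalized counts. The change was 1.85 (SE 0.27, edgeR adjusted p = 2.57e-05), with 1.17 against WNK2 trans Ctr and 0.18 (adjusted p = 0.727) in WNK2- cells. DDIT4, a stress-induced inhibitor of mTORC1 named after its values were seen, rose by 1.25 against WT Ctr, was at 0.05 against WNK2 trans Ctr and fell by 0.92 in WNK2- cells. HSP90B1, a chaperone of the endoplasmic reticulum, fell by 0.55, by 0.35 against WNK2 trans Ctr and by 0.47 in WNK2- cells.

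Amino acid transporters rose against WT Ctr. Of 20 tested, 10 were higher and 1 lower, with a median of 0.26, but 5 were higher without WT Ctr replicate 2 and 3 against WNK2 trans Ctr. SLC7A11, the cystine importer, went from 130.2, 99.5, 229 and 293 to 528, 552, 516 and 379.8 normalized counts. Its rise of 1.40 (SE 0.34, edgeR adjusted p = 0.00371) stood beside 0.47 against WNK2 trans Ctr and −0.25 in WNK2- cells, neither of which passed. SLC6A9, a glycine transporter named after its values were seen, rose by 1.34 (edgeR adjusted p = 4.67e-05). The value of SLC6A9 was 0.33 against WNK2 trans Ctr and −0.23 in WNK2- cells, neither of which passed (adjusted p = 0.308 and 0.508). SLC43A2 fell by 0.63, a call lost in 7 alternatives.

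In the glycolysis list 3 of 22 genes (13.6%) were higher and 8 (36.4%) lower, with a median of −0.20, beside 11.4% and 12.7% of all genes. PGK1, an ATP-producing enzyme of glycolysis, fell by 0.50 (SE 0.10, edgeR adjusted p = 0.000684), and GAPDH and LDHA, named after their values were seen, by 0.43 and 0.44. All 3 also fell against WNK2 trans Ctr, with log2 fold changes of −0.73 for PGK1, −0.38 for GAPDH and −0.76 for LDHA. In WNK2- cells none of the 3 passed, at −0.15, −0.01 and −0.26 (edgeR adjusted p = 0.353, 0.972 and 0.117). The list there had 3 genes higher and 3 lower. Against WT Ctr the list also varied with single libraries left out. The count of falls was 4 without WT Sor replicate 3 and 5 without WT Ctr replicate 1, WT Ctr replicate 2 or WT Sor replicate 4, and 5 genes were higher without WT Ctr replicate 1. PFKFB4, which makes an activator of glycolysis, rose by 0.65 (edgeR adjusted p = 8.64e-05) and was at −0.03 in both of the other comparisons. Among 25 hypoxia-inducible genes 7 were higher and 2 lower (median 0.13), and 3 higher and 11 lower against WNK2 trans Ctr. ANGPTL4, a secreted inhibitor of lipoprotein lipase, rose from 184, 130.3, 110.3 and 143 to 446, 435, 539.8 and 553 normalized counts. The change was 1.80 (SE 0.19, edgeR adjusted p = 2.28e-07), against 0.09 with WNK2 trans Ctr as control and 1.26 in WNK2- cells. EPAS1, the oxygen-regulated factor HIF-2alpha named after its values were seen, rose by 1.12 from 2424, 2008, 2293 and 2693 to 5026, 5238, 5149 and 5059. EPAS1 was at 0.24 against WNK2 trans Ctr (mean 4321, edgeR adjusted p = 0.0603), and in WNK2- cells it rose by 0.31 (adjusted p = 0.0164).

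The NRF2 list was divided, with 6 of 27 genes (22.2%) higher and 5 (18.5%) lower and a median of −0.03. AKR1C1, an aldo-keto reductase with near-identical relatives, rose from 22.9, 7.11, 20.6 and 14.6 to 88.2, 69.3, 81.2 and 65.3 normalized counts, or by 2.21 (SE 0.28, edgeR adjusted p = 4.54e-06). It passed against WNK2 trans Ctr (2.19) and in WNK2- cells (1.60). TXN, thioredoxin, fell by 0.78 (edgeR adjusted p = 0.00393) and did not pass in the other 2 comparisons (−0.34 and 0.06). Of 34 genes of cholesterol and fatty acid synthesis 1 (2.94%) was higher and 6 (17.6%) lower (median −0.03). By contrast, 7 were higher and 0 lower against WNK2 trans Ctr (median 0.19), and 0 higher and 8 lower in WNK2- cells (median −0.10). ACAT2, an early enzyme of the cholesterol pathway, fell by 0.47 against WT Ctr and was at 0.11 against WNK2 trans Ctr. The lysosome and autophagy list had 6 of 36 (16.7%) higher and 3 (8.33%) lower (median 0.04), beside 11.4% and 12.7% of all genes. The count of falls was 5 without WT Ctr replicate 4 and 1 without WT Ctr replicate 2 or any of WT Sor replicates 2, 3 and 4. TFEB, the factor that drives lysosomal genes, rose by 0.87 (SE 0.17, edgeR adjusted p = 0.000536), by 0.69 against WNK2 trans Ctr, and was at −0.03 in WNK2- cells.

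Collagen genes rose against WT Ctr but not against the other isotonic group. Of 27 tested, 11 (40.7%) were higher and 0 lower, with a median of 0.38, and 7 were higher and 1 lower without WT Ctr replicate 2. With the GC and length correction 10 were higher and 2 lower (median 0.20). With WNK2 trans Ctr as control 2 were higher and 10 lower (median −0.25), and in WNK2- cells 1 was higher and 10 lower (median −0.44). COL15A1 went from 72.3, 63.9, 97.4 and 74.3 to 164, 190, 176 and 172 normalized counts, a rise of 1.18 (SE 0.18, edgeR adjusted p = 3.62e-05) that was 0.10 against WNK2 trans Ctr. COL3A1, a fibrillar collagen named after its values were seen, rose by 0.62 from 8184, 8125, 8544 and 7986 to 13214, 12949.5, 12129 and 12218. It fell by 0.61 against WNK2 trans Ctr, whose mean was 19305, and by 0.82 in WNK2- cells. The 3 main chains of collagen VI, which surrounds chondrocytes, were likewise named afterwards and rose by 0.48 (COL6A1), 0.38 (COL6A2) and 0.50 (COL6A3). Against WNK2 trans Ctr they were at 0.14, 0.02 and 0.15 and did not pass. The first pair lost their calls in 3 and 8 alternatives, including the removal of WT Ctr replicate 2 for each, and with the GC and length correction COL6A1 was at 0.28 and COL6A2 at 0.07. COL1A1 was at 0.04 (SE 0.13) in WT cells, fell by 0.69 against WNK2 trans Ctr and fell by 1.44 in WNK2- cells. COL2A1, the main collagen of hyaline cartilage, had 54.5 to 115 normalized counts in WT Ctr and 43.6 to 70.0 in WT Sor. Its log2 fold change was −0.49 (SE 0.22, edgeR adjusted p = 0.116). COL2A1 fell by 1.61 against WNK2 trans Ctr (mean 179, adjusted p = 9.38e-06) and was at 0.94 in WNK2- cells (adjusted p = 0.0610).

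Among proteoglycans and matrix glycoproteins 8 of 33 were higher and 2 lower (median 0.12), with 4 lower without WT Ctr replicate 2, whereas 3 were higher and 9 lower against WNK2 trans Ctr. VCAN, a large proteoglycan, rose from 139, 153, 229 and 255 to 467, 556, 508 and 423 normalized counts, or by 1.33 (SE 0.22, edgeR adjusted p = 0.000102). Against WNK2 trans Ctr it was at 0.02. FN1, fibronectin, was named after its values were seen and rose by 0.43 (edgeR adjusted p = 0.00687), but was at 0.06 against WNK2 trans Ctr (adjusted p = 0.795) and fell by 0.47 in WNK2- cells (adjusted p = 0.00485). EFEMP1, a fibulin, fell by 0.77 (SE 0.09, edgeR adjusted p = 7.75e-07), by 1.29 against WNK2 trans Ctr and by 1.20 in WNK2- cells. COMP and PRG4, cartilage matrix genes, were counted at 26.5 to 50.6 and 0 to 7.57 normalized counts in WT Ctr and did not pass (−0.23 and 1.63, edgeR adjusted p = 0.704 and 0.0657). PRG4 passed in 2 alternatives, among them DESeq2 (adjusted p = 0.0262), and overlaps TPR on the other strand. For collagen cross-linking and processing 3 of 19 (15.8%) were higher and 3 (15.8%) lower (median −0.08), beside 11.4% and 12.7% of all genes. Without WT Ctr replicate 2, 1 was lower. With the GC and length correction 4 were higher and 8 lower, and 1 was higher and 5 lower against WNK2 trans Ctr. The rise of LOX by 0.98 was lost in 9 alternatives and was 0.08 against WNK2 trans Ctr, and P4HA1, a prolyl hydroxylase, fell by 0.43, by 0.90 and by 0.55 in the 3 comparisons.

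Of 30 matrix proteases and inhibitors 11 (36.7%) were higher and 4 (13.3%) lower (median 0.12). The list had 7 higher and 5 lower against WNK2 trans Ctr (median −0.13). MMP3, stromelysin-1, had 2.41, 4.74, 7.57 and 5.31 normalized counts in WT Ctr and 17.9 to 24.4 in WT Sor, a rise of 2.09 (SE 0.38, edgeR adjusted p = 0.000263) at a low level. It rose by 2.43 against WNK2 trans Ctr and by 4.20 in WNK2- cells. A pair of further metalloproteinases was named after their values were seen. MMP16, which is anchored in the membrane, rose by 1.61 from 639, 915, 1152 and 973 to 2846, 2826, 2906 and 2679, and MMP2, a gelatinase, fell by 0.73 in WT and by 0.73 in WNK2- cells. With WNK2 trans Ctr as control neither passed, at 0.36 for MMP16 and −0.25 for MMP2 (edgeR adjusted p = 0.138 and 0.0550), and MMP16 was at −0.23 in WNK2- cells (adjusted p = 0.425). ADAMTS9, at −0.58 against WNK2 trans Ctr (adjusted p = 0.214), fell by 1.13 in WT cells and rose by 1.42 in WNK2- cells, and this difference passed (edgeR adjusted p = 0.000179). Integrin subunits had 6 of 14 (42.9%) higher and 0 lower, with a median of 0.33. Without WT Ctr replicate 2 the counts were the same and the median was 0.17. Against WNK2 trans Ctr 3 were higher and 0 lower (median 0.22), and in WNK2- cells 5 were higher and 2 lower (median 0.09). ITGA10, a collagen-binding integrin of chondrocytes, went from 50.6, 81.7, 37.9 and 41.2 to 110, 173, 153 and 167 normalized counts. It rose by 1.51 (SE 0.21, edgeR adjusted p = 1.49e-05), by 2.26 against WNK2 trans Ctr and by 1.59 in WNK2- cells. ITGA2 and ITGA11, collagen-binding too and named after their values were seen, rose by 1.43 and 1.27. ITGA2 rose in all 3 comparisons, while ITGA11 was at −0.02 against WNK2 trans Ctr and fell by 0.79 in WNK2- cells. Of 11 hyaluronan genes 4 were higher and 1 lower (median 0.49), and 3 were higher and 1 lower against WNK2 trans Ctr (median 0.04). HMMR, a hyaluronan receptor that also acts at the spindle, fell by 0.62 and was at −0.11 against WNK2 trans Ctr, CEMIP2, a hyaluronidase, rose by 0.87, and HAS2, a hyaluronan synthase named after its values were seen, rose by 0.72 against WT Ctr and fell by 0.92 against WNK2 trans Ctr.

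In the FGF and EGF list 11 of 25 (44.0%) were higher and 0 lower (median 0.27), with 9 higher and 3 lower against WNK2 trans Ctr and 8 higher and 4 lower in WNK2- cells. AREG, a ligand of the EGF receptor, went from 25.3, 15.4, 10.8 and 13.3 to 65.3, 40.6, 72.0 and 51.0 normalized counts, or rose by 1.82 (SE 0.30, edgeR adjusted p = 9.04e-05). The feedback inhibitors DUSP6 and SPRY2, named after their values were seen, rose by 0.74 and 1.03 and passed in all 3 comparisons. AP-1 and immediate early genes had 9 of 25 (36.0%) higher and 1 lower (median 0.40), and 15 higher without WT Ctr replicate 1. The fall, of KLF10 by 0.25, was lost in 10 alternatives. Of the list, 6 genes were higher and 2 lower against WNK2 trans Ctr (median 0.15), and 4 and 2 in WNK2- cells (median 0.09). FOS rose from 629, 712, 453 and 483 to 1456, 1382, 2218 and 1572, or by 1.54 (SE 0.22, edgeR adjusted p = 2.05e-05), and by 1.10 against WNK2 trans Ctr. In WNK2- cells FOS was at −0.31 (adjusted p = 0.455), and the difference between genotypes passed (adjusted p = 0.000717). EGR1, named after its values were seen, rose by 0.92 in WT cells, was at 0.46 against WNK2 trans Ctr (edgeR adjusted p = 0.146) and fell by 1.61 in WNK2- cells.

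In the TGF-beta and BMP list 9 of 44 (20.5%) were higher and 4 (9.09%) lower (median 0.13), beside 11.4% and 12.7% of all genes. GDF15, a stress-induced ligand of that family, went from 998, 564, 532 and 826 to 2370.4, 2312, 2594 and 2540.1 normalized counts. It rose by 1.75 (SE 0.20, edgeR adjusted p = 7.78e-07) and by 0.83 against WNK2 trans Ctr, and was at 0.21 (adjusted p = 0.528) in WNK2- cells, a difference between genotypes that passed (adjusted p = 0.000717). BMP2, a ligand that drives chondrocyte maturation, rose by 1.74 from 72.5 ± 10.2 to 242 ± 17.2 normalized counts (SD, n = 4), and passed in all 3 comparisons. INHBB, an activin subunit, fell by 1.24, with 2 alternatives in which the call was lost, and was at 0.12 against WNK2 trans Ctr. Chondrocyte and hypertrophy regulators, BMP2 among them, had 5 of 23 (21.7%) higher and 2 (8.70%) lower (median 0.22). There were 8 higher without WT Ctr replicate 4 and 0 lower without WT Ctr replicate 2. This list had 2 higher and 2 lower against WNK2 trans Ctr (median −0.05). RUNX2, which directs hypertrophy, was at 0.02 (SE 0.11) in WT cells and fell by 0.87 in WNK2- cells. FOXO3 fell by 0.31, a call lost in 9 alternatives, and was at −0.15 against WNK2 trans Ctr.

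WNT genes were divided, with 9 of 40 (22.5%) higher and 4 (10.0%) lower (median 0.14), beside 11.4% and 12.7% of all genes. The list had 7 higher and 7 lower against WNK2 trans Ctr (median −0.07). FZD8, a WNT receptor, rose from 748, 476, 479 and 665 to 1628, 1572, 1729.9 and 1771 normalized counts, or by 1.50 (SE 0.17, edgeR adjusted p = 7.90e-07), while FZD3 fell by 0.68. Against WNK2 trans Ctr they were at 0.51 (edgeR adjusted p = 0.0398) and −0.41 (adjusted p = 0.0876). WNT5A, a non-canonical ligand named after its values were seen, rose by 0.78 in WT, was at 0.23 against WNK2 trans Ctr (adjusted p = 0.111) and fell by 0.75 in WNK2- cells. Of 20 Notch genes 3 were higher and 1 lower (median 0.19), with 5 higher without WT Ctr replicate 4, and 1 higher and 6 lower against WNK2 trans Ctr. NOTCH3 depended on the control. It rose by 0.90 from 2666, 1397, 2485 and 3094 to 4569, 4594, 4506 and 4309 against WT Ctr, fell by 1.02 against WNK2 trans Ctr (mean 9083) and fell by 1.75 in WNK2- cells. LFNG fell by 0.83, a call lost in 8 alternatives, and was at −0.37 against WNK2 trans Ctr. YAP and TEAD targets had 5 of 24 higher and 1 lower (median 0.23), with 3 higher without WT Ctr replicate 2 or WT Sor replicate 4 and 8 higher without WT Ctr replicate 4. With the GC and length correction 11 were higher and 3 lower. CCN1, a matricellular YAP target, rose by 0.70 and by 0.77 against WNK2 trans Ctr. F3, tissue factor, fell by 0.42 against WT Ctr and rose by 0.64 against WNK2 trans Ctr. Contractile actin and SRF targets had 3 of 31 (9.68%) higher and 4 (12.9%) lower (median 0.10), near the 11.4% and 12.7% of all genes. CALD1, the actin-binding caldesmon, rose by 1.86 from 15.7 to 39.1 normalized counts in WT Ctr to 66.4 to 114 in WT Sor. In WNK2- cells CALD1 was at 0.10 (edgeR adjusted p = 0.861), and the difference between genotypes passed (adjusted p = 0.00838). CNN3 fell by 0.67. ACTB, named after its values were seen, fell by 0.58 and was at −0.01 against WNK2 trans Ctr and 0.01 in WNK2- cells. Among 22 clock genes 2 (9.09%) were higher and 2 (9.09%) lower (median 0.23), near the shares of all genes. The count of rises was 6 without WT Ctr replicate 1, 4 without WT Ctr replicate 4 and 7 with the GC and length correction. NPAS2, an activator of the clock, rose by 0.85, 1.45 and 1.49 in the 3 comparisons, and BHLHE41, a repressor, fell by 0.94 in WT, was at 0.15 against WNK2 trans Ctr and rose by 0.67 in WNK2- cells.

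Chemokine and cytokine counts differed between the control groups. Of 27 tested, 4 (14.8%) were higher and 5 (18.5%) lower (median 0.14), near the 11.4% and 12.7% of all genes, but 10 were higher and 3 lower against WNK2 trans Ctr (median 0.48). CXCL8, a neutrophil chemoattractant, fell by 1.20 (SE 0.13, edgeR adjusted p = 2.60e-07) from 1184, 1869.9, 1523 and 1313 to 581, 657, 644 and 680 normalized counts. Against WNK2 trans Ctr, whose mean was 260.3, it rose by 1.30, and in WNK2- cells by 0.60. CXCL1 and CXCL6, of the same family and named after their values were seen, fell by 0.78 and 0.97 against WT Ctr and rose by 1.57 and 0.68 against WNK2 trans Ctr. CXCL6 fell by 0.67 in WNK2- cells. The rise of IL7 by 0.83 was lost in 7 alternatives.

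NF-kB subunits and feedback genes had 4 of 24 (16.7%) higher and 2 (8.33%) lower (median −0.05), and 8 higher and 1 lower against WNK2 trans Ctr (median 0.15). With the GC and length correction 5 were higher and 6 lower against WT Ctr. PTGS2, cyclooxygenase-2, went from 2607, 3505, 3630.4 and 3213 to 9498, 9407, 10924 and 10072 normalized counts without overlap. It rose by 1.62 (SE 0.15, edgeR adjusted p = 4.61e-08), by 1.68 against WNK2 trans Ctr and by 0.48 in WNK2- cells. PTGES, the synthase that makes prostaglandin E2 from its product, fell by 0.61 in WT cells and by 1.15 in WNK2- cells, and rose by 1.22 against WNK2 trans Ctr. Interferon-induced genes had 4 of 30 (13.3%) higher and 3 (10.0%) lower (median 0.08), near the shares of all genes, with 7 higher without WT Ctr replicate 3 and 5 lower without WT Ctr replicate 1. In the comparison with WNK2 trans Ctr 10 were higher and 1 lower (median 0.20). IRF9, a subunit of the interferon-activated factor ISGF3, rose by 1.33 from 8.29 to 34.6 normalized counts in WT Ctr to 45.4 to 58.8 in WT Sor. In WNK2- cells IRF9 was at −0.07 (edgeR adjusted p = 0.905), and the difference between genotypes passed (adjusted p = 0.0313). IFI44 fell by 0.77 and was at −0.23 against WNK2 trans Ctr.

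**Figure D5:**
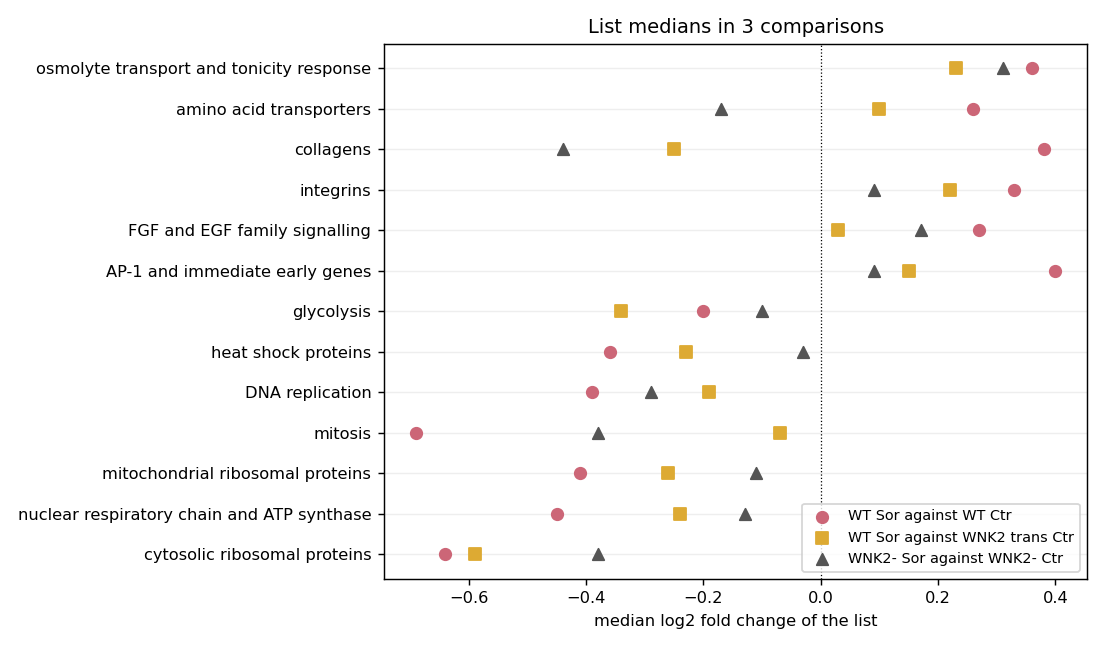
Median log2 fold change of 13 lists in WT Sor against WT Ctr (circles), WT Sor against WNK2 trans Ctr (squares) and WNK2- Sor against WNK2- Ctr (triangles). The first 2 share the WT Sor libraries. Collagens lie at 0.38, −0.25 and −0.44, and cytosolic ribosomal proteins at −0.64, −0.59 and −0.38.

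Markers of other cell types were summed as well. The summed CPM of 10 monocyte and macrophage markers was 8.70 to 12.0 in WT Ctr and 12.3 to 18.5 in WT Sor, and 7 of them, PTPRC included, stayed under 1 CPM. For 9 endothelial markers the sums were 38.7 to 43.3 and 68.7 to 77.7, with 3 of 7 tested higher and VWF, TEK, KDR and EMCN under 1 CPM. The fibroblast and other mesenchymal list went from 3212 to 4073 in WT Ctr to 4118 to 4285 in WT Sor, with 3 of 8 tested higher and 1 lower, and DCN, THY1 and COL1A2 under 1 CPM. Epithelial (612 to 941 against 839 to 901), adipocyte (112 to 148 against 117 to 121) and skeletal muscle markers (60.8 to 109 against 106 to 122) were also measured, and the epithelial, adipocyte and muscle ranges of the 2 groups overlapped. Their part in the gene groups that rose was not tested. In bulk RNA, fewer cells of a type and less RNA per cell cannot be told apart.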

How the data were processed

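The authors deposited raw read counts per Ensembl gene for each library, made without normalization from poly(A)-enriched RNA. The submitters' processing notes name FastQC 0.11.9, HISAT2 2.2.1, HTSeq 2.0.2, DESeq2 1.38.3 and GRCh38. The annotation release and the use of strand are not given in the sources used here. Symbols matched 62625 identifiers, and positions are those of GENCODE 29 (58279 identifiers). In R 4.3.3, edgeR 4.0.16 kept genes by filterByExpr (minimum count 10, minimum total 15), scaled libraries by TMM and fitted 24 libraries as 6 group means with a quasi-likelihood model, and p-values were adjusted by Benjamini-Hochberg over all genes (threshold 0.05). Standard errors were obtained from each fold change and its F statistic. Normalized counts are counts over effective library size times the mean size.

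The genes named are 20 fixed genes (3 of them untested), the largest called rise and fall of each of 35 lists (mean log2 CPM of at least 1), and the 8 largest rises and falls among called protein-coding genes (mean log2 CPM of at least 3, no overlap between groups). Of the genes this rule gives, 2 are not reported here. A further 29 genes are marked in the text as named after their values were seen. The groups compared and the lists were chosen with earlier results of these data known. Lists were described by counts and medians, without a test of lists. Counts given without a share are to be read beside the 11.4% and 12.7% of all genes called higher and lower. Of the 118 genes named, 52 share exon sequence with another gene in GENCODE 29 and are uncertain to that extent. The fit was tested on simulated data. Alternatives were DESeq2 1.42.0, RLE and upper-quartile factors, no filter, at least 10 counts in every library, the compared groups alone, a replicate block, a GC and length correction (splines with 5 degrees of freedom) and each of 20 libraries left out.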

Additional observations from a re-analysis of the deposited data

Results flagged for a closer look

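Between WT and WNK2- cells the effect of sorbitol was tested for 32 genes, the fixed genes and the largest changes, and differed for 16 of them (edgeR interaction, adjusted over all genes). The largest changes were chosen by the fold change in WT cells, which enters this difference, so that count is not set against the share of all genes. Relative to WNK2- cells, the effect in cells labelled WT was higher on the log2 scale for NPAS3 (3.30), SSTR1 (3.03), APOE (1.60), COL1A1 (1.48), RANBP3L (1.36), GALNT9 (1.10), TRPV4 (0.97) and RUNX2 (0.89). It was lower for WNK2 (−2.88), CXCL8 (−1.80), MT1E (−1.74), COL2A1 (−1.43), EIF5AL1 (−1.30), IL32 (−1.19), ACBD7 (−1.03) and AKR1B1 (−0.67). These differences rest on the labels of WT Ctr and WT Sor. Mean normalized counts of WNK2 were 2520 in WT Ctr and 303 in WT Sor, where the paper's supplement lists similar levels. The WNK2- cells are a single clone.

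Single libraries stood far from the other 3 of their group in 9 of the 236 groups of values screened, by Dixon's ratio of the gap to the range, and chance alone does so in about 1 in 20 groups. WT Ctr replicate 2 was the highest for FAU (4602 normalized counts), HSPA8 (63926) and P4HA1 (2537), and WT Ctr replicate 3 for PRSS35 (16.2). In WT Sor, replicate 3 was the highest for NPAS3 (429) and ITGA2 (5136) and the lowest for GAPDH (23759). Replicate 4 was the highest for TXN (3922), and replicate 1 for ACBD7 (332). Groups did not overlap for any of these genes.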

How the results depend on the processing

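For sorbitol in WT cells the count of calls ran from 2692 (compared groups alone) to 5252 (GC and length correction, 2649 higher) against 4008, and from 2761 (without WT Ctr replicate 2) to 4259 with 1 library left out. Of 1873 values of the 118 named genes under alternatives, 1762 kept their direction and their side of the threshold, and 94 of 107 called genes kept their call throughout. The GC and length correction moved the calls against WNK2 trans Ctr to 4237, in WNK2- cells to 4083 and for the interaction to 2331, and the compared groups alone gave 4824 in WNK2- cells. The cause was not tested. With 1 library left out the interaction gave 849 to 1908 calls, 849 without WNK2- Sor replicate 3 and 944 without WNK2- Ctr replicate 2. With no filter, 796 of 1168 interaction calls were positive, against 773 of 1436. Values near 0 changed sign for SLC6A6 (0.00 with at least 10 counts, −0.12 to 0.04 with a library left out), LRRC8A (0.04 with at least 10 counts, 0.02 with no filter, 0.01 in the compared groups alone, 0.03 with upper-quartile factors, −0.02 to 0.03 with a library left out), RUNX2 (−0.04 to 0.08 with a library left out) and COL1A1 (−0.16 with the GC correction, −0.06 to 0.13 with a library left out).

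Replicate numbers are shared between the groups but are not stated to pair them, and deviations of same-numbered WT Ctr and WT Sor libraries correlated at 0.233, −0.289, 0.652 and −0.212, so the numbers were not taken as pairs. With the replicate number as a block, 3894 genes were called in WT cells, 2387 against WNK2 trans Ctr, 2350 in WNK2- cells and 1323 for the interaction. Precision was limited by the spread of the WT Ctr libraries. List counts of 1 or 2 genes also changed with single libraries left out. The GC and length correction moved counts of further lists, for which no corrected value is given.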

Other observations

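Non-coding genes were described by type. Of 1151 long intergenic RNA genes tested, 181 were higher and 18 lower, with a median log2 fold change of 0.35, and of 899 antisense genes 99 were higher and 22 lower (median 0.24). Protein-coding genes numbered 13068, with 1460 higher, 1995 lower and a median of 0.00. The intergenic RNAs had medians of 0.38 against WNK2 trans Ctr, 0.28 in WNK2- cells and 0.37 with the GC and length correction. Processed pseudogenes went the other way, with a median of −0.43 against WT Ctr, −0.31 against WNK2 trans Ctr and −0.13 in WNK2- cells. Most non-coding genes are weakly counted, and over all types the genes with a mean log2 CPM under 1 had a median of 0.35.

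The fold changes in WT cells followed base composition. From the fifth of genes with the lowest GC content to the fifth with the highest, the median log2 fold change against WT Ctr was −0.10, −0.05, 0.00, 0.07 and 0.21. The same medians were −0.01, 0.01, 0.01, −0.01 and −0.01 against WNK2 trans Ctr and 0.04, 0.03, 0.02, −0.02 and −0.08 in WNK2- cells. The slope of counts on GC content, per 10 percentage points, was 0.23, −0.23, −0.15 and 0.07 in WT Ctr replicates 1 to 4 and 0.07 to 0.13 in WT Sor. With the GC and length correction the calls in WT cells went from 4008 to 5252.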
